A study of Mus musculus with 4 samples.

Results

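Heart muscle genes were followed in RNA from whole mouse lungs. The 10 genes, Myh6, Myl7, Myl4, Mybpc3, Tnnt2, Tnni3, Actc1, Ryr2, Sln and Nppa, were chosen by symbol as genes of cardiomyocytes, and all 10 were among the 22556 genes of the deposited table. The data came from lungs of E16.5 embryos, with 2 Control and 2 Shh-Stk11 libraries, each numbered 1 and 2, and paired values of a genotype are given in that order. Both genotypes had Shh-Cre, together with 1 floxed and 1 intact allele of Stk11 in Control embryos and with 2 floxed alleles in Shh-Stk11 embryos. C57BL/6 was the strain in the labels, but the study's methods speak of mixed backgrounds. Neither source gave the sex or the litter of each sequenced embryo. The methods state that the heart was taken off E16.5 lungs that were prepared for cell sorting, and they do not describe the dissection of the lungs used for RNA sequencing.

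Cardiomyocytes contract through sarcomeres, in which thick filaments of myosin pull on thin filaments of actin. Calcium released from the sarcoplasmic reticulum through the ryanodine receptor acts on troponin of the thin filament and starts each contraction, and pumps return the calcium to the store. Atrial and ventricular cells use different light chains of myosin and differ in the peptides they secrete. In mice, heart muscle of atrial type continues from the left atrium into the wall of the pulmonary veins, so a lung can hold such cells. Shh-Cre recombines in endoderm, from which lung epithelium derives and to which cardiomyocytes do not belong. These genes were therefore taken to mark cells other than those that lose Stk11, and which cells expressed them here was not tested.

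Values are in FPKM, read numbers per length of transcript and per mapped reads of a library, and can be compared between genes per length. The depth recovered from the steps of the low values was 30.8 to 38.0 M reads per library, so that a single read on 2000 bases of transcript made up 0.0146 to 0.0181 FPKM. Stk11, the deleted gene, was at 43.99 and 45.5 FPKM in the Control libraries and at 29.5 and 26.0 FPKM in the Shh-Stk11 libraries. Its difference of -0.69 on the log2 scale (SE 0.125) had an adjusted p of 0.0499 in limma, and 3 of 15 alternative fits kept it past the threshold; without any single library the adjusted p was 0.0955 to 0.156. Shh-Stk11 2 was the only male library, with 23.5 FPKM of the Y-linked gene Ddx3y (elsewhere at most 0.0285 FPKM) and 0.239 FPKM of the female transcript Xist (elsewhere 65.1 to 169 FPKM). Lung epithelium was present in every library, with Sftpc, the surfactant protein C gene, at 8005 to 17426 FPKM, Sftpb, the surfactant protein B gene, at 426 to 666 FPKM and the lung transcription factor gene Nkx2-1 at 170 to 207 FPKM.

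All 10 heart muscle genes were detected in all 4 libraries, and 9 reached the filter of a mean of 0.5 FPKM. The genotype comparison in limma passed an adjusted p of 0.05 for 0 of these 9, beside 2.27% of the 13770 genes tested. Libraries of both genotypes interleaved. For all 9 the highest value was in Control 2, followed by Shh-Stk11 1, Control 1 and Shh-Stk11 2, an order found in 4.28% of all genes tested, so 1 library of each genotype was on the high side and 1 on the low side. The summed level of the 10 genes was 127 and 292 FPKM in the Control and 166 and 63.4 FPKM in the Shh-Stk11 libraries, and Control 2 was thus 4.61-fold above Shh-Stk11 2. In bulk tissue, fewer cardiomyocytes and less RNA per cardiomyocyte cannot be told apart.

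**Figure D1:**
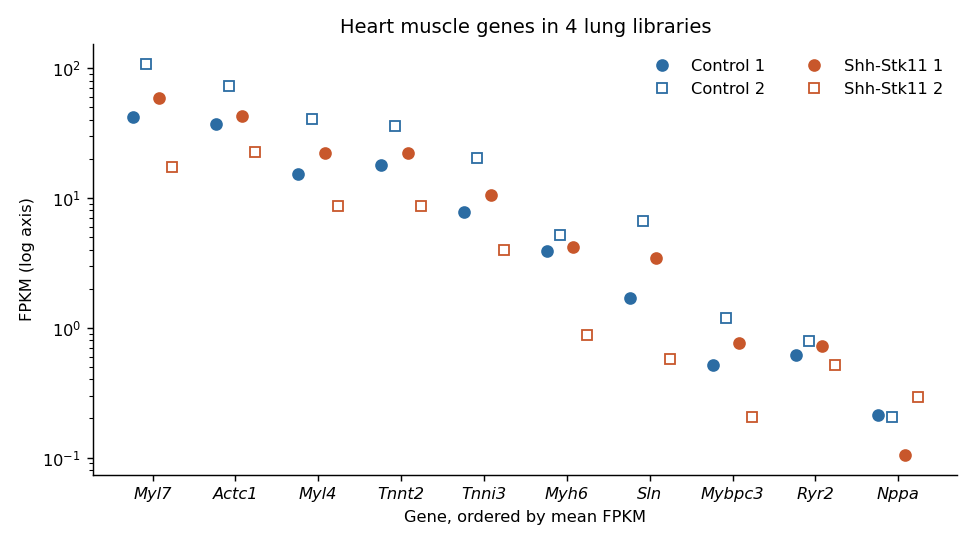
FPKM (log axis) of the 10 heart muscle genes, ordered by mean level, with 1 point for each of the 4 libraries. Control 2 is the highest and Shh-Stk11 2 the lowest library for every gene except Nppa, and the genotypes overlap in all 10.

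Among the thick filament genes, Myl7, which encodes the atrial regulatory light chain, had the highest mean level of the 10 over the 4 libraries. Myl7 was at 42.3 and 108 FPKM in the Control libraries and 58.6 and 17.2 FPKM in the Shh-Stk11 libraries, and in Control 1 it stood at the 90.4th percentile of all genes in the table. Means were 75.3 ± 46.6 FPKM for Control and 37.9 ± 29.3 FPKM for Shh-Stk11 lungs (SD, n = 2 each). Each Shh-Stk11 value was below Control 2, but Shh-Stk11 1 was above Control 1, and the log2 fold change of -1.09 (SE 0.627, 95% interval -2.60 to 0.42) did not pass the test (limma adjusted p 0.481). Myl4, the gene of the atrial essential light chain, was at 15.3 and 40.7 FPKM in the Control libraries and 22.0 and 8.72 FPKM in the Shh-Stk11 libraries. The groups overlapped in the same way (log2 fold change -0.84, SE 0.549, limma adjusted p 0.531). Mybpc3, the gene of cardiac myosin binding protein C, was low throughout, at 0.519 and 1.19 FPKM in the Control libraries and 0.763 and 0.206 FPKM in the Shh-Stk11 libraries. Its difference on the log2 scale was -0.80 (SE 0.595, limma adjusted p 0.584).

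Myh6, the gene of the alpha myosin heavy chain, departed from the light chains in that 3 of its libraries were close to each other. It was at 3.92 and 5.22 FPKM in the Control libraries and 4.15 and 0.885 FPKM in the Shh-Stk11 libraries, and the last value stood alone. The log2 fold change was -1.18 (SE 0.618, 95% interval -2.66 to 0.31), the most negative of the 9, with a limma adjusted p of 0.441. Without Shh-Stk11 1 it was -2.23 with a limma adjusted p of 0.00785, a fit in which Shh-Stk11 2 alone stood for its genotype and was assumed to vary like the Control libraries. Without Shh-Stk11 2 it was -0.12. Myh7, the gene of the beta myosin heavy chain that predominates in the fetal ventricle, did not share this pattern and was at 12.2 and 8.25 FPKM in Control and 10.8 and 7.20 FPKM in Shh-Stk11 (log2 fold change -0.18, limma adjusted p 0.788). Myh6 made up 24.3% and 38.8% of the summed FPKM of both genes in Control and 27.7% and 10.9% in Shh-Stk11.

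The split of reads between these heavy chains is uncertain, because their transcripts are near copies over long stretches. Of all 50-base stretches of the longest coding transcript of Myh6 in GENCODE M21, 22.6% also occurred in Myh7, whereas the corresponding share with any other gene was 0% for 8 of the other members and 0.0775% for Ryr2. The reads were 50 bases long, and how reads with more than 1 match were counted was not given in the sources used here. The longest identical run, of 245 bases, is printed with 15 bases on either side from transcript positions 4467 to 4741 of Myh6 and 4621 to 4895 of Myh7, 5′ to 3′, to show how little sequence separates the genes there. Capitals mark the 2 positions that differ in this window.
Myh6: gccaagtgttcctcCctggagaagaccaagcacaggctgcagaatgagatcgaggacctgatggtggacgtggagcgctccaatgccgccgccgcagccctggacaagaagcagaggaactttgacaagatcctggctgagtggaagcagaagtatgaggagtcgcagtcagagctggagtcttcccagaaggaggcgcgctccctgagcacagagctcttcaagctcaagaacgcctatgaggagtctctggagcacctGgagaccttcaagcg
Myh7: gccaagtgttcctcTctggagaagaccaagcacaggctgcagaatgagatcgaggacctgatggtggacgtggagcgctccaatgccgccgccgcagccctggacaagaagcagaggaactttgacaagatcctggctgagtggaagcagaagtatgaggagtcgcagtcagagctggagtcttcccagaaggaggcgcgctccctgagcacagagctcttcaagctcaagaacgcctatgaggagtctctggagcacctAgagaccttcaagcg

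The thin filament genes followed the light chains. Actc1, the gene of cardiac alpha-actin, was second by mean level and the highest of the 10 in Shh-Stk11 2, at 36.9 and 73.2 FPKM in the Control libraries and 42.9 and 22.4 FPKM in the Shh-Stk11 libraries (log2 fold change -0.74, SE 0.394, 95% interval -1.69 to 0.20, limma adjusted p 0.445). Tnnt2, the gene of cardiac troponin T, which anchors the troponin complex to tropomyosin, was at 17.8 and 36.0 FPKM in Control and 22.3 and 8.67 FPKM in Shh-Stk11 (log2 fold change -0.86, SE 0.484, limma adjusted p 0.472). Tnni3, the gene of the inhibitory subunit of adult heart muscle, was at 7.75 and 20.2 FPKM in Control and 10.6 and 3.95 FPKM in Shh-Stk11 (log2 fold change -0.94, SE 0.557, limma adjusted p 0.493). In each of the 3 genes Shh-Stk11 1 lay between the Control libraries, and only Shh-Stk11 2 was below both. Tnnt2 and Myl4 could not be ordered by level, since Tnnt2 was the higher in Control 1 and Shh-Stk11 1 and Myl4 was the higher in Control 2 and Shh-Stk11 2. Tnni3 made up 55.6% to 65.4% of its sum with Tnni1, the form of slow skeletal and fetal heart muscle.

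The calcium handling genes held both the widest and the narrowest range between libraries. Sln encodes sarcolipin, a small inhibitor of the sarcoplasmic calcium pump that is made in the atria. It was at 1.68 and 6.58 FPKM in the Control libraries and 3.42 and 0.577 FPKM in the Shh-Stk11 libraries, an 11.4-fold range. The smallest whole read numbers in the ratio of these values were 20, 65, 33 and 6, and the true counts may be a multiple of them. At exactly 6 reads the 95% Poisson interval would be 2.2 to 13.1 reads, which covers counting error only. A larger count would have a relatively narrower interval. The difference between the genotypes was -1.16 on the log2 scale (SE 0.865, 95% interval -3.24 to 0.92, limma adjusted p 0.587). Ryr2, the gene of the ryanodine receptor of heart muscle, spanned 1.54-fold, at 0.614 and 0.786 FPKM in the Control libraries and 0.721 and 0.512 FPKM in the Shh-Stk11 libraries. It differed by -0.17 on the log2 scale (SE 0.326, 95% interval -0.95 to 0.62, limma adjusted p 0.853). Without Shh-Stk11 2 both values turned to the other side of 0, at 0.03 for Sln and 0.05 for Ryr2.

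Nppa, the gene of atrial natriuretic peptide, a hormone that atrial cells secrete in quantity, was the lowest of the 10 and did not reach the filter. It was at 0.211 and 0.204 FPKM in the Control libraries and 0.104 and 0.290 FPKM in the Shh-Stk11 libraries. In reads this was at least 5, 4, 2 and 6, and at these counts the 95% Poisson intervals of the lowest and highest library, 0.242 to 7.22 in Shh-Stk11 1 and 2.2 to 13.1 in Shh-Stk11 2, still overlapped in part. Its order of libraries differed from that of the other members, with Shh-Stk11 2 on top, but so few reads do not fix an order. With lower filters its log2 fold change was -0.12 and its limma adjusted p at least 0.908.

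The genes past the threshold in either direction were 1.29% (lower in Shh-Stk11 lungs) and 0.98% (higher) of all genes tested, and 0 of the 9 heart muscle genes were among them. At an unadjusted p under 0.05 the count was again 0 of 9, beside 15.2% of all genes tested. Non-overlapping groups were found for 46.8% of all genes tested, 27.6% with Shh-Stk11 as the lower group, and for 0 of the 9. All 9 log2 fold changes were below 0, between -1.18 and -0.17, with a median of -0.86 beside -0.05 for all genes tested. That median rested on single libraries. It was -0.18 without Shh-Stk11 2, -0.25 without Control 2 (over 8 genes, as Mybpc3 then missed the filter), -1.38 without Control 1 and -1.55 without Shh-Stk11 1. The 95% intervals of all 9 included 0, and that of Myl7 reached down to -2.60, so these libraries bound a genotype difference only loosely. With 2 libraries per genotype the smallest two-sided p of an exact permutation test is 0.333, so the test relies on variance borrowed from other genes.

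**Figure D2:**
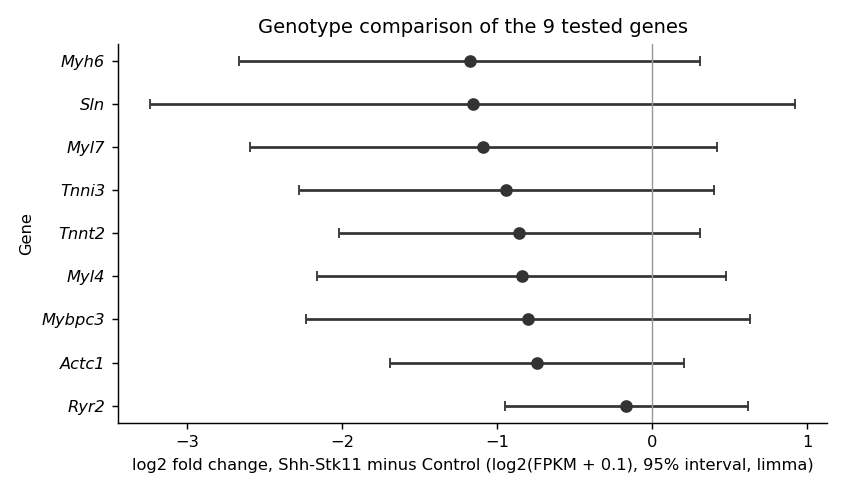
Log2 fold change between Shh-Stk11 and Control on the log2(FPKM + 0.1) scale for the 9 tested heart muscle genes, with 95% intervals from limma (n = 2 libraries per genotype). Every interval includes 0, from the narrowest at Ryr2 (-0.95 to 0.62) to the widest at Sln (-3.24 to 0.92).

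The spread between replicates was the main feature of these genes. The median absolute log2 difference between the Control libraries was 1.07 for the 9 genes and 0.183 for all genes tested, and between the Shh-Stk11 libraries it was 1.396 and 0.158. A difference of at least the members' median was seen in 1.28% of all genes tested in Control and in 0.799% in Shh-Stk11. From the highest to the lowest library Myl7 spanned 6.29-fold, Myh6 5.90-fold, Mybpc3 5.81-fold, Tnni3 5.11-fold, Myl4 4.67-fold, Tnnt2 4.16-fold and Actc1 3.27-fold. The order Control 2, Shh-Stk11 1, Control 1, Shh-Stk11 2, was shared by all 9. After quantile normalization, or after removal of the trend with transcript length and GC content, 8 of the 9 kept it and Ryr2 did not. Shh-Stk11 2, the lowest library for all 9, was also the only male library, so with 1 male library sex and library cannot be told apart. The estimated depth was 38.0 M reads for Control 1, 31.5 M for Control 2, 30.8 M for Shh-Stk11 1 and 33.1 M for Shh-Stk11 2, and its part in the spread was not tested.

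**Figure D3:**
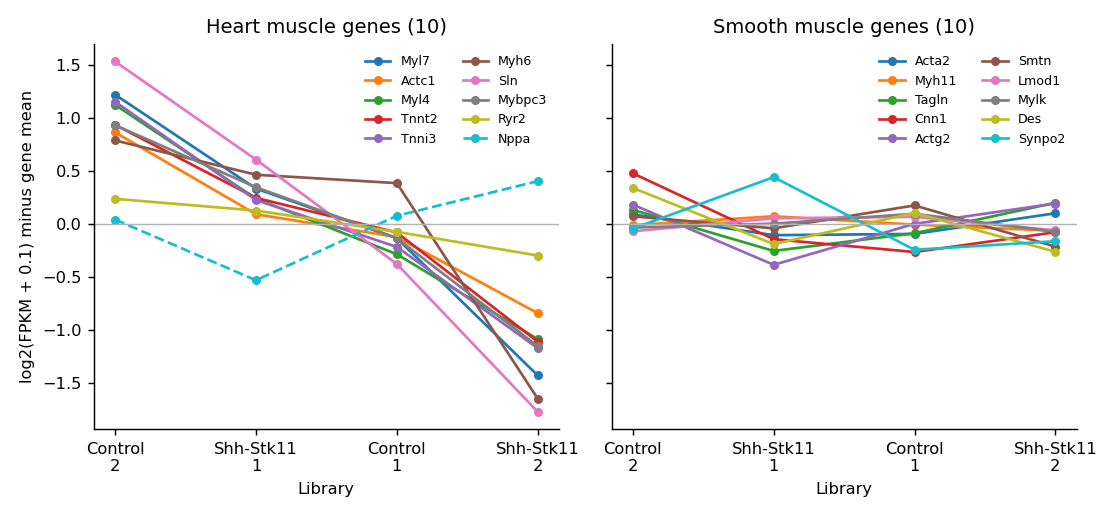
Deviation of log2(FPKM + 0.1) from the mean of each gene in the 4 libraries, for the 10 heart muscle genes (left) and 10 smooth muscle genes (right), with libraries in the order of the summed heart muscle level. The 9 tested heart muscle genes descend from Control 2 to Shh-Stk11 2, the untested Nppa (dashed) does not, and 0 of the 10 smooth muscle genes follow that order.

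Most proportions among the genes varied less than their levels. Myl7 and Actc1 together made up 61.3% to 62.5% of the summed FPKM of the 10 genes in each of the 4 libraries, although the sum itself spanned 4.61-fold. Their single shares moved against each other, with Myl7 at 27.1% of the sum in Shh-Stk11 2 and 33.3% to 37.0% elsewhere and Actc1 at 35.3% in Shh-Stk11 2 and at most 29.1% elsewhere. Taken as a ratio to Myl7 in the same library, Mybpc3 varied by 1.18-fold between its highest and lowest library, Tnni3 by 1.27-fold, Myl4 by 1.41-fold, Tnnt2 by 1.51-fold, Sln by 1.81-fold, and Myh6 and Actc1 by 1.92-fold. Casq2 and Tnnc1, the genes of cardiac calsequestrin and of the troponin C of heart and slow muscle, which were not among the 10, varied by 1.26-fold and 1.27-fold. Ryr2 (4.10-fold), Myh7 (5.49-fold) and Nppa (9.48-fold) varied more, the last of them from few reads. The smooth muscle genes Acta2 and Myh11, which were almost level across the libraries, varied by 6.34-fold and 6.06-fold relative to Myl7. For such level genes this ratio mostly restates the 6.29-fold span of Myl7 itself. In level, Ryr2 spanned 1.54-fold and Myh7 1.69-fold over the 4 libraries.

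**Figure D4:**
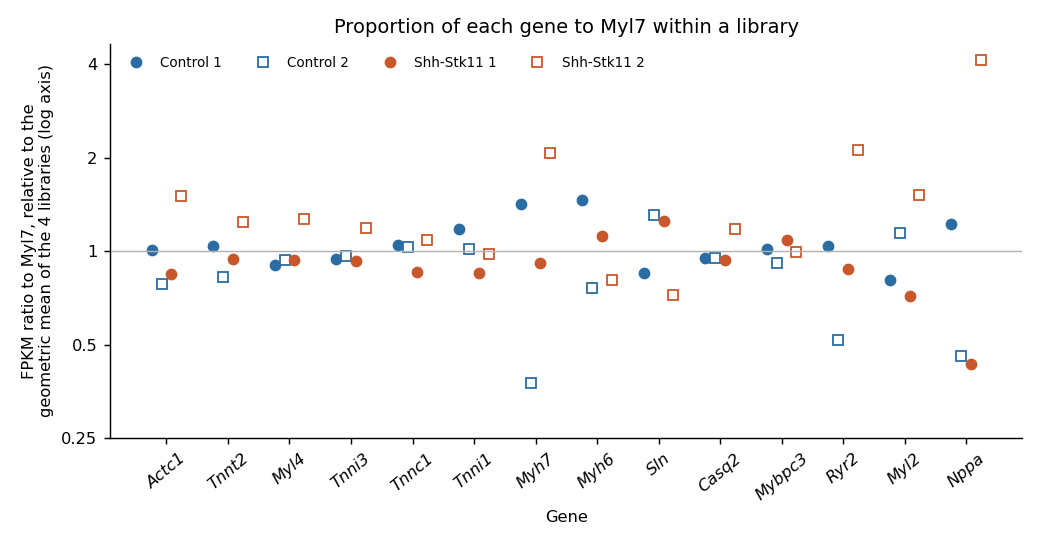
FPKM ratio of each gene to Myl7 within a library, divided by the geometric mean of that ratio over the 4 libraries (log axis), for 9 heart muscle genes and 5 further genes of the sarcomere or of calcium handling. Mybpc3, Casq2, Tnnc1 and Tnni3 span at most 1.27-fold from highest to lowest, whereas Ryr2, Myh7 and Nppa span 4.10-fold or more.

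The chamber type of the signal was read from genes that differ between atrium and ventricle. Myl7 exceeded its ventricular counterpart Myl2 by 229-fold and 162-fold in Control and by 257-fold and 122-fold in Shh-Stk11 lungs. Myl2 itself was at 0.185 and 0.669 FPKM in Control and 0.228 and 0.141 FPKM in Shh-Stk11, which is at least 3, 9, 3 and 2 reads, and it took the same order of libraries as the 9 genes. Myl3, the ventricular essential light chain gene, was at 0.261 to 0.779 FPKM and Pln, the gene of phospholamban, at 0.118 to 0.257 FPKM. The ventricular transcription factor genes Irx4 and Hand1 were listed at 0 in every library, and Hey2, which blood vessels also express, was at 3.15 to 3.97 FPKM. On the atrial side Bmp10 was listed at 0 in every library, Nppa was at a few reads, and the potassium channel genes Kcnj3, Kcnj5 and Kcna5 reached at most 0.0880, 0.663 and 1.95 FPKM. Nr2f1, an atrial transcription factor gene that other tissues express as well, was at 3.73 and 5.04 FPKM in Control and 3.06 and 2.82 FPKM in Shh-Stk11 libraries (log2 fold change -0.55, limma adjusted p 0.25). Per length, the atrial light chain genes Myl7 and Myl4 were thus far above the ventricular ones, while Myh7 of the ventricular list was higher than Myh6 in every library and the atrial secreted factors were at or near 0. Myh7 took another order of libraries, its ratio to Myl7 varied by 5.49-fold, and the split of reads between Myh6 and Myh7 is uncertain.

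Other heart muscle genes were taken from lists of 26 sarcomere genes, 16 genes of calcium handling and ion channels, and 12 genes of secreted peptides and energy metabolism. Of these 54 genes 36 were tested, 1 was lower in Shh-Stk11 lungs (1.29% of all genes tested were called lower) and 0 were higher, with a median log2 fold change of -0.40. The order of libraries seen in the 9 genes was found in 11 of the 36, against 4.28% of all genes tested. Among 18 tested sarcomere genes 0 passed the test, the median was -0.57, and 7 took that order. Tnnc1, which took it, was at 11.9 and 30.1 FPKM in Control and 13.5 and 5.04 FPKM in Shh-Stk11 (log2 fold change -1.19, limma adjusted p 0.382). The 2 sarcomere genes with the highest mean level did not follow it, as Nexn, the gene of an actin-binding protein also found in smooth muscle, was at 17.5 and 21.5 FPKM in Control and 29.7 and 26.1 FPKM in Shh-Stk11 (log2 fold change 0.52, limma adjusted p 0.159), and Nebl was at 14.2 to 19.1 FPKM in all libraries (log2 fold change 0.13, limma adjusted p 0.763).

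Of 10 tested genes of calcium handling and ion channels 0 passed the test, their median was -0.13, and only Casq2 took the order of the 9 genes. The highest of them are also expressed outside the heart. Atp2a2, the gene of the sarcoplasmic calcium pump, was at 40.3 to 51.3 FPKM, Gja5, a connexin gene of atrium and arteries, at 15.5 to 23.95 FPKM, and Jph2 at 5.59 to 7.21 FPKM, without a difference past the threshold (limma adjusted p 0.955, 0.475 and 0.619). In the list of peptides and energy metabolism 8 genes were tested, all 8 log2 fold changes were below 0 with a median of -0.94, and 3 of the 8 took the order of the 9 genes. Pgam2, the gene of muscle phosphoglycerate mutase, fell by 1.17 on the log2 scale (SE 0.161, limma adjusted p 0.0247). Pgam2 was at 14.0 and 12.9 FPKM in Control and 6.72 and 5.25 FPKM in Shh-Stk11 libraries, so its groups did not overlap and its order was not that of the 9 genes. This call was lost in 5 of 15 alternative fits, among them those without Control 1 (adjusted p 0.109) and without Control 2 (0.0898), with the highest adjusted p at 0.112. Cox7a1 (9.80 to 17.4 FPKM) and Eno3 (at most 15.9 FPKM), muscle forms of a respiratory chain subunit and of enolase, did not pass (limma adjusted p 0.680 and 0.333). Fabp3, the gene of the fatty acid binding protein of heart and named after its values were seen, was at 5.22 and 7.90 FPKM in Control and 3.59 and 2.02 FPKM in Shh-Stk11 and did not pass either (log2 fold change -1.22, limma adjusted p 0.117).

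Heart transcription factor genes were low where they are known mainly from the heart and higher where the lung uses them too. Nkx2-5 was at 0.120 and 0.144 FPKM in the Control libraries and 0.172 and 0.0456 FPKM in the Shh-Stk11 libraries, from at least 6, 6, 7 and 2 reads. Its lowest library was thus also Shh-Stk11 2, but at so few reads this cannot be set against the others. Tbx20, named after its values were seen, was at 0.438 and 0.628 FPKM in Control and 0.820 and 0.154 FPKM in Shh-Stk11. Tbx5, Tbx3 and Mef2c, which the embryonic lung expresses outside heart muscle, were at 20.8 to 29.0, 12.3 to 19.7 and 10.6 to 13.7 FPKM. Of the 8 tested transcription factor genes 0 passed the test, with a median log2 fold change of -0.34.

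Skeletal and smooth muscle were compared because they share many sarcomere and actin genes with the heart. Of 24 skeletal muscle genes 7 were tested and 0 of these took the order of the 9 heart muscle genes. Tnnc2, the fast skeletal troponin C gene, which was not tested and is named after its values were seen, did take that order, at 0.108 and 0.457 FPKM in Control and 0.334 and 0.0620 FPKM in Shh-Stk11. The lineage factor genes Myod1 and Myf6 were listed at 0 in every library, and the highest members were Mylpf at 7.14 to 10.5 FPKM, Tnnt1 at 3.31 to 8.10, Tnni2 at 1.20 to 2.03 and Tnnt3 at 1.03 to 1.96 FPKM. Pax7, a gene of muscle stem cells and of some neural cells, was higher in Shh-Stk11 lungs at 2.72 and 2.19 FPKM, beside 0 and 0.00777 FPKM in Control (limma adjusted p 0.00397), although no other gene of that list passed the test. All 10 smooth muscle genes were tested, 0 passed, and 0 took the order of the heart muscle genes. Their summed level was 559 and 616 FPKM in Control and 528 and 605 FPKM in Shh-Stk11, and the median absolute log2 difference between replicates was 0.183 in Control and 0.155 in Shh-Stk11. Acta2 was at 280 to 323 FPKM, Tagln at 84.7 to 116, Mylk at 61.2 to 68.9, Actg2 at 26.0 to 38.8 and Smtn at 22.9 to 29.96 FPKM.

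Markers of other tissues at the lung surface or next to it were set beside the heart muscle genes. The 7 mesothelium and epicardium genes summed to 395 and 387 FPKM in Control and 314 and 420 FPKM in Shh-Stk11, most of it from Krt19, a keratin gene that lung epithelium also expresses, at 263 to 351 FPKM. Without Krt19 the other 6 summed to 106 and 86.7 FPKM in Control and 50.9 and 68.6 FPKM in Shh-Stk11, mostly from Msln at 73.1 and 55.7 FPKM in Control and 29.7 and 43.2 FPKM in Shh-Stk11 (limma adjusted p 0.123), while Upk3b was at 12.2 to 17.7 FPKM. Groups that do not overlap with Shh-Stk11 as the lower one, as in this sum, were found for 27.6% of all genes tested. The 4 endocardium genes summed to 126 to 132 FPKM, of which Cdh11, a gene of mesenchyme in general, made up 101 to 109 FPKM. Without Cdh11 the other 3 summed to 31.6 and 20.5 FPKM in Control and 21.7 and 24.1 FPKM in Shh-Stk11, and Npr3 alone was at 16.8 and 7.04 FPKM in Control and 8.45 and 12.5 FPKM in Shh-Stk11, with Control 2 as its lowest library, and Hapln1 was at 6.99 to 9.62 FPKM. Of the 6 thymocyte genes, Lck was at 1.38 to 1.76 FPKM and the other 5, among them Rag1 and Dntt, were at most 0.0487 FPKM. The 6 hepatocyte genes summed to 0.682 and 2.2 FPKM in Control and 1.17 and 0.709 FPKM in Shh-Stk11. Control 2 was thus highest and Shh-Stk11 1 second, as in the heart muscle genes, but Control 1 was lowest. Alb was at 0.572 and 1.60 FPKM in Control and 0.776 and 0.491 FPKM in Shh-Stk11, thus in the order of the heart muscle genes. Ahsg, at most 0.0999 FPKM, also took that order. Afp (at most 0.353 FPKM) and Ttr (at most 0.125 FPKM) shared only its first and second library, and Apoa1 and Fgb did not follow it. The part of carried tissue in the spread of the heart muscle genes was not tested.

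**Figure D5:**
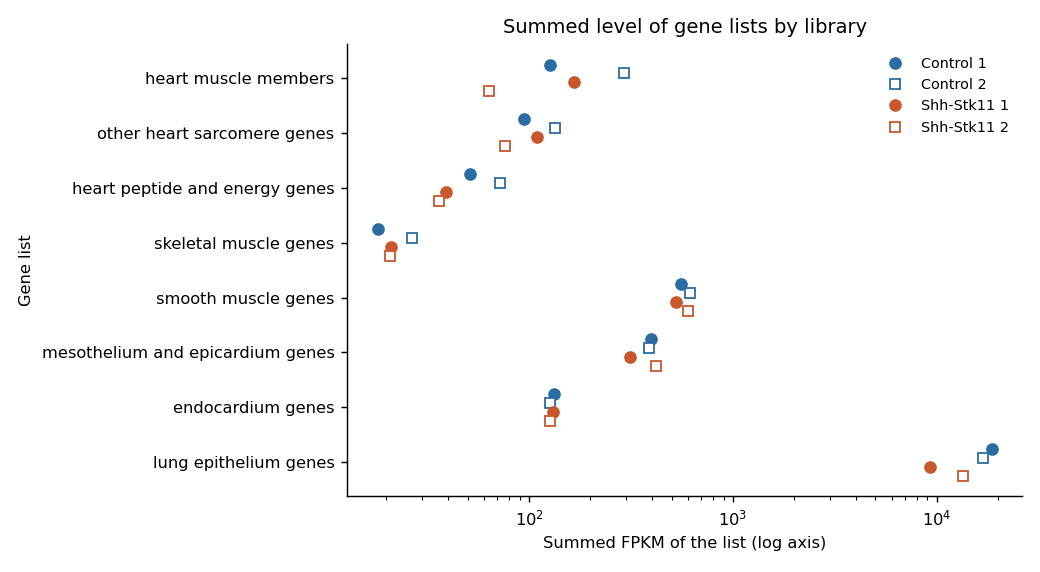
Summed FPKM (log axis) of 8 gene lists in the 4 libraries. The heart muscle members span 4.61-fold between Shh-Stk11 2 and Control 2, whereas the sums of the smooth muscle, mesothelium and endocardium genes span less, the mesothelium and endocardium sums resting mostly on 1 broadly expressed gene each (Krt19 and Cdh11).

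To find genes with the same pattern, the profile of each gene over the 4 libraries was compared with the median profile of the 9 genes by root mean square distance on the log2 scale. Of 1463 genes that varied enough, 20, or 1.37%, were in one of the muscle lists, and 6 of the nearest 10 were. These 6 were Casq2 (distance 0.0889), Actn2 (0.175), Tnnc1 (0.195), Ckm (0.195), Tcap (0.197) and Hspb7 (0.232), beside a median distance of 0.990 over all eligible genes. Actn2 and Tcap encode proteins of the Z disc, Ckm the creatine kinase of muscle, and Hspb7 a small heat shock protein of heart and muscle. The other 4 were Lect1, the nearest of all at 0.0597, B3gnt7 (0.179), Crabp1 (0.221) and Ppp2r2b (0.238). Lect1, now called Cnmd and known as the gene of chondromodulin, was at 0.491 and 1.11 FPKM in Control and 0.606 and 0.196 FPKM in Shh-Stk11. With only 4 libraries such a distance is a description.

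The promoter sequences of the members were examined because 9 of the genes shared 1 order of libraries. RefSeq windows of 300 bases (GRCm38.p6), from 250 bases before to 50 bases after an annotated start, were given for 9 of the 10 genes, 2 of them for Tnnt2, and not for Sln. On both strands, the CArG box bound by SRF was found in 2 of the 9, Myl7 and Actc1, and in 1.63% of the 32851 promoters. TATAAA was found in 3 members and 13.6% of all promoters, CATTCC, the motif of TEAD factors, in 3 and 14.7%, AGATAA, a motif of GATA factors, in 1 and 11.2%, TNAAGTG, the motif of NKX2-5, in 1 and 11.5%, and TAAAAATA, a form of the MEF2 motif, in 0 and 2.72%. The promoters of the genes with the highest and second highest mean level over the 4 libraries and that of the gene outside the shared order are printed 5′ to 3′ on the strand of the gene, with matches in capitals. In Myl7 these are CATTCC and the CArG box, in Actc1 the CArG box and TATAAA, and in Nppa TNAAGTG and TATAAA. The pattern of the CArG box reads the same on both strands, so each of its matches falls on both at the same bases. Matches of different motifs do not overlap in these 3 windows, and each is a match of letters only.
Myl7, chr11:5898733-5899032, strand -: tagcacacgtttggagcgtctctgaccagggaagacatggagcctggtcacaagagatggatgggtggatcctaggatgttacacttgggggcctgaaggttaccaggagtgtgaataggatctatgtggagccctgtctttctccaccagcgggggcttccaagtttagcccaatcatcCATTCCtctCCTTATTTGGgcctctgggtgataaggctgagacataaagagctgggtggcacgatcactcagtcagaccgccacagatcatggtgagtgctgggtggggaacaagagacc
Actc1, chr2:114052826-114053125, strand -: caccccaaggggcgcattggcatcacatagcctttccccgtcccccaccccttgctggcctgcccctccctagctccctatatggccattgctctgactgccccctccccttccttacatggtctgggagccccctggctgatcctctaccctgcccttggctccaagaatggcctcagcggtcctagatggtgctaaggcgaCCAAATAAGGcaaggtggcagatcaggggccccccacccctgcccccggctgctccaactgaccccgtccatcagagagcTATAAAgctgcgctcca
Nppa, chr4:148000472-148000771, strand +: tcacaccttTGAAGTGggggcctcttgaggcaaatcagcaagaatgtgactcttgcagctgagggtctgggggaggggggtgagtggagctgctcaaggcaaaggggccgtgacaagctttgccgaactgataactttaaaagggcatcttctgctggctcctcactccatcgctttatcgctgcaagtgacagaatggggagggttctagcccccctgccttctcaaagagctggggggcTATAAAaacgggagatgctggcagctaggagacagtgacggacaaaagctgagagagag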

How the data were processed

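RNA of whole E16.5 lungs was sequenced as single-end 50-base reads from independent biological replicates, according to the methods of the study, and 2 libraries per genotype were used. The authors deposited a single table with the FPKM of each gene in each library. The submitters' processing notes name TopHat2 2.0.13, Cufflinks 2.2.1 and the builds GRCm38 and mm9 without their roles, so no gene coordinates are given from the table. No value column was left without a library.

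The 10 genes and all lists were chosen with earlier results of these data known. Symbols were matched to GENCODE M21 directly (20242) or through RefSeq synonyms (1918). FPKM values are not counts, so limma 3.58.1 (R 4.3.3) was run on log2(FPKM + 0.1) with genotype as the only term, eBayes with a trend, and two-sided p-values adjusted by Benjamini-Hochberg over the 13770 genes that averaged 0.5 FPKM or more, at a threshold of 0.05. This scale understates the change of low genes. Values are means ± SD over n = 2 libraries. Reads per library were estimated from 1806 low genes, each above 0 but under 0.3 FPKM throughout, of which 76.0% gave whole multiples of a smallest step within a tolerance of 0.2%; the figures contain any scaling by the authors.

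Named genes were the 10 members, list genes past the threshold, the 3 highest of each list (5 for chamber, skeletal and smooth muscle), the 10 genes nearest in profile, Stk11, Xist and Ddx3y, except a gene that is not reported here. Genes named beyond these to mark a missing or contrasting cell type were chosen after their values were seen. Alternatives were pseudocounts of 1 and 0.01, filters of 0.1 and 5 FPKM or none, quantile and median ratio scaling, eBayes without trend or robust, the replicate number as a block, removal of length and GC trends, and leaving out each library.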

Additional observations from a re-analysis of the deposited data

How the results depend on the processing

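The number of heart muscle genes past the threshold stayed at 0 in the alternatives listed in the methods, except without Shh-Stk11 replicate 1, where it was 1 (Myh6), so leaving out single libraries gave 0 to 1. Their median log2 fold change was -0.95 to -0.75 in the fits with all 4 libraries and -1.55 to -0.18 when single libraries were left out. Leaving out single libraries moved Sln between -2.35 and 0.030 and Ryr2 between -0.38 and 0.045, and the sign changed without Shh-Stk11 replicate 2. The number of genes changed between the genotypes, 313, was 61 with no filter, 200 with a filter of 5 FPKM, 587 with robust eBayes and 192 after removal of length and GC trends, and 104 to 319 when single libraries were left out. The cause was not tested, beyond the different numbers of genes tested under the filters. Of the other heart muscle genes 1 passed, and 0 did with no filter or after removal of those trends, and 0 to 3 without single libraries.

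With the replicate number as a block 13 genes changed, of which 0 were heart muscle members and 0 other heart muscle genes, and Pgam2 (limma adjusted p 0.0982), Pax7 (0.0608) and Stk11 (0.154) no longer passed. Nothing in the labels ties a replicate number to a litter or batch, and libraries sharing a number had deviations correlated at -0.11. A crossed pairing (Control 1 with Shh-Stk11 2 and Control 2 with Shh-Stk11 1), added after seeing the data, gave 675 genes in all, 6 heart muscle members and 6 other heart muscle genes, but it pairs neighbours in the members' own order of libraries, so its calls of members support nothing. The median log2 fold change of all genes tested was -0.05 and moved to -0.01 under median ratio scaling. Nppa, Myl2 and Nkx2-5 rest on few reads, at the smallest 2 to 9 per library, which limits any statement on them.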

Other observations

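Further lists of tissue near the lung did not follow the order of the heart muscle genes. The 5 cartilage genes summed to 1.46 and 2.12 FPKM in Control and 4.38 and 2.29 FPKM in Shh-Stk11, the 5 genes of squamous oesophagus to 1.65 and 2.30 FPKM and to 2.90 and 3.24 FPKM, and the 5 nerve and ganglion genes to 9.27 and 10.4 FPKM and to 7.85 and 8.53 FPKM, with 0 of the 6 tested genes of these lists past the threshold in limma and 3 at an unadjusted p under 0.05, beside 15.2% of all genes tested. High genes of these lists were Col9a1 (0.769 to 2.44 FPKM), Col11a2 (0.350 to 0.899) and Col2a1 (0.255 to 0.891) for cartilage, Krt13 (0.543 to 1.87), Krt4 (0.722 to 1.56) and Trp63 (0.0664 to 0.170) for oesophagus, and Stmn2 (6.12 to 9.17) for nerve, where Sox10 was at 0.0959 to 0.220 FPKM. Among immediate early genes Jun was at 39.5 to 52.7 FPKM and Junb at 13.2 to 18.3 FPKM, and Egr1 was higher in Shh-Stk11 lungs, at 3.03 and 3.26 FPKM in Control and 6.26 and 6.84 FPKM in Shh-Stk11 (log2 fold change 1.04, limma adjusted p 0.0259). Egr1 passed in 8 of 14 alternative fits. It did not pass with the replicate number as a block (limma adjusted p 0.125), nor when any single library was left out.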
